A study of Homo sapiens with 24 samples.

Results

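ERK, the last kinase of the RAS, RAF and MEK cascade, is held in check by proteins whose genes it switches on itself. Of the 10 genes described here, the DUSP, SPRY and SPRED genes belong to that negative feedback, and PHLDA1 is counted with them. The 10 together are called the feedback genes below. DUSP1, DUSP4, DUSP5 and DUSP6 encode dual-specificity phosphatases that remove the activating phosphates from MAP kinases, SPRY1, SPRY2 and SPRY4 encode Sprouty proteins and SPRED1 and SPRED2 their Sprouty-related relatives, which act between the receptor and RAF, and PHLDA1 encodes a pleckstrin homology-like domain protein. In glioblastoma, where receptor tyrosine kinases are often overactive, RNA of these genes is commonly read as a mark of the output of the cascade. The genes were chosen by symbol, as all probes whose RefSeq transcript belonged to 1 of the 10 symbols, which gave 12 of 58201 probes on the array and 10 of 24843 symbols. The 10 symbols were chosen with earlier results of these data known, so shares of all genes given beside theirs are a description only.

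The RNA came from U251, an established human glioblastoma cell line, exposed to G-1, an agonist of the G protein-coupled estrogen receptor GPER. All cells were kept for 24 h in charcoal-stripped serum, without steroid hormones, before treatment. There were 6 groups of 4 arrays, with DMSO, G-1 at the IC50 or G-1 at 1 µM, each for 24 h or for 72 h, where IC50 is the dose that the study took as half-inhibitory and DMSO, at 0.1% in the labels and at another percentage in the study's text, is the solvent. The replicates came from 4 independent experiments on 1 line. In 2 of the groups, the lower dose at 24 h and the higher dose at 72 h, a further label contradicted the title on duration, and titles were followed.

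Each array gave 1 fluorescence intensity per spot. Between 38.0% and 44.5% of the spots of an array passed the software's test for well above background, and the number of arrays limits the precision. Levels are given below as log2 signals relative to the 75th percentile of the same array, so that a difference of 1 is a fold change of 2. They cannot be set against each other between genes, since probes differ in brightness. Slide 3 carried the 8 arrays of the 1 µM dose and no others, and was read in its own scanning session, while DMSO and G-1 IC50 shared slides 1 and 2. At a given duration, therefore, the effect of the 1 µM dose and an effect of slide or session cannot be told apart by design, whereas the comparison of 72 h with 24 h within G-1 1 µM stays on slide 3. Of the markers for a glioblastoma line, VIM, CD44, NES, TNC, SOX9, S100B and GFAP were well above background on 24 of 24 arrays and AQP4 on 0. Of 7 markers of immune, endothelial, epithelial and liver cells, 6 were above background on 0 arrays, and the endothelial CDH5 was above it on 16. As bulk RNA was measured, a change in the share of some cells and a change in the RNA per cell cannot be told apart.

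Of the 12 probes, 11 were well above background on all 24 arrays, and none was saturated. The second SPRY4 probe was well above background on 0 of 24 arrays and was not tested. Each gene is given by its brightest probe. A gene is called when its absolute fold change was above 2 and its limma p-value, adjusted over 22973 tested probes with the Benjamini-Hochberg method, was below 0.05. Shares of all genes are over the 14236 symbols with a tested probe.

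After 72 h at G-1 1 µM, the RNA of the feedback genes was higher than after 72 h in DMSO, and the change was largest for SPRY4, DUSP5, DUSP4 and DUSP6. DUSP4, DUSP5, DUSP6, SPRY1, SPRY2, SPRY4 and SPRED2 were called higher, which is 7 of 10, while 4.93% of all genes were called higher and 12.3% in either direction. DUSP1, SPRED1 and PHLDA1 also passed the adjusted p, at a fold change under 2, which makes 10 of 10 that rose, beside 35.3% of all genes. The 4 treated arrays lay above all 4 DMSO arrays for 10 of 10 genes, as they did for 31.2% of all genes. The median log2 fold change of the 10 genes was 1.31, and that of all genes 0.03.

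**Figure D1:**
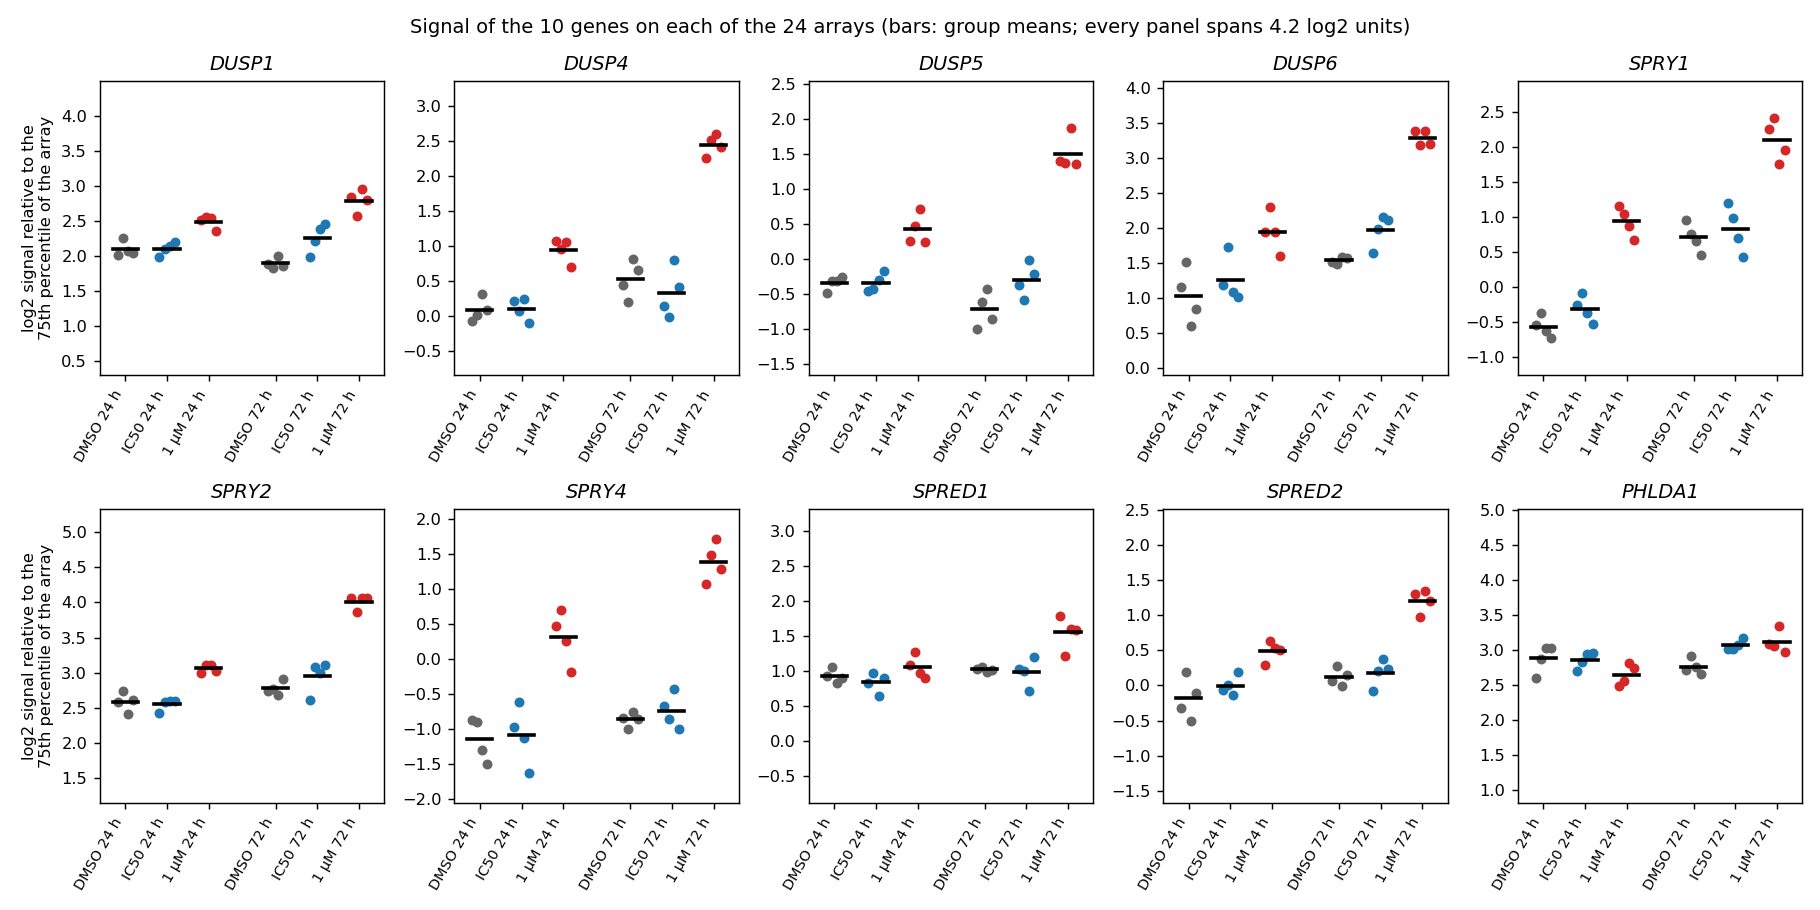
Log2 signal of the brightest probe of each gene relative to the 75th percentile of the array (vertical axis), for the 4 arrays of each of the 6 groups (grey, DMSO; blue, G-1 IC50; red, G-1 1 µM; black bars, group means). At 72 h the red points lie above the grey points in all 10 panels, with group means of DUSP4, for example, of 2.45 and 0.53.

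Among the phosphatases, DUSP5, a nuclear phosphatase that acts on ERK, had log2 signals of -0.99, -0.60, -0.42 and -0.85 in the DMSO 72 h arrays. In the G-1 1 µM 72 h arrays it had 1.40, 1.37, 1.87 and 1.36. The lowest treated array thus stood far above the highest control array, and the third treated array stood above the other 3. The fold change was 4.65, with a log2 value of 2.22 (95% confidence interval 1.92 to 2.51, adjusted p = 7.79e-11).

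DUSP4, another nuclear phosphatase of MAP kinases, had 0.44, 0.20, 0.81 and 0.66 in DMSO 72 h and 2.26, 2.52, 2.60 and 2.42 in G-1 1 µM 72 h. The groups did not overlap, and the fold change was 3.79 (log2 1.92, interval 1.61 to 2.24, adjusted p = 1.37e-09). DUSP6, the cytoplasmic phosphatase that acts mainly on ERK, had 1.51, 1.48, 1.58 and 1.57 in DMSO 72 h and 3.38, 3.18, 3.39 and 3.19 in G-1 1 µM 72 h. Both groups were tight, and the fold change was 3.36 (log2 1.75, interval 1.38 to 2.12, adjusted p = 4.16e-08).

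DUSP1, an immediate early gene whose phosphatase acts on p38 and JNK as well as on ERK, moved less than the other phosphatases. Its signals were 1.88, 1.84, 2.00 and 1.86 in DMSO 72 h and 2.84, 2.57, 2.96 and 2.80 in G-1 1 µM 72 h. The groups did not overlap, but the fold change of 1.86 (log2 0.90, interval 0.70 to 1.09, adjusted p = 6.83e-08) stayed below the threshold of 2. The interval of DUSP1 did not overlap that of DUSP4, DUSP5 or DUSP6.

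The promoters of 3 of the genes are shown because these genes moved by different amounts: DUSP1 had the smallest fold change of the phosphatases, DUSP6 a larger one and SPRY4 the largest of the 10. Each sequence holds the 250 bases before the annotated start of transcription, from RefSeq on GRCh38.p14, read 5′ to 3′ on the strand of the gene, and capitals mark a cAMP response element (CRE).
DUSP1, chr5:172771196-172771445, minus strand: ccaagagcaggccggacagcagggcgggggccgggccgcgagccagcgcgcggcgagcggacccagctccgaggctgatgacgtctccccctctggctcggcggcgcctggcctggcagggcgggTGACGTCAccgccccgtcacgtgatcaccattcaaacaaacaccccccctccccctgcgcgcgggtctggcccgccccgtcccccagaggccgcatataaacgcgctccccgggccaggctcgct
DUSP6, chr12:89352502-89352751, minus strand: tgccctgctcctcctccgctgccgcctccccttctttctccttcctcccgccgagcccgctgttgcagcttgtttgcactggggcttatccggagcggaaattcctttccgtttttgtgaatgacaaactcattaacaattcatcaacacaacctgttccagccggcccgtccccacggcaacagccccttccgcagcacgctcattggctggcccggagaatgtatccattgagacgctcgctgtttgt
SPRY4, chr5:142324248-142324497, minus strand: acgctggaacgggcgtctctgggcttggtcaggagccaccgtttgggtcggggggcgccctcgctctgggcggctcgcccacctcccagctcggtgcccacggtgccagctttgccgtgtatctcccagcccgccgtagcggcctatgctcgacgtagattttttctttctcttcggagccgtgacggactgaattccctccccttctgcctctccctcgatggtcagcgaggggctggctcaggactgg

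The promoter table held 12 such windows for 8 of the 10 genes, with none for DUSP4 and DUSP5. On both strands, the AP-1 motif TGANTCA was found in 0 of the 12 windows, against 6.57% of 35116 windows in the table. The CRE, TGACGTCA, was found in 1, that of DUSP1, between 125 and 118 bases before the start, against 1.65% of all windows. The ETS motif CCGGAAGT (3.42% of all windows) and the CArG box bound by SRF (1.16%) were found in 0 of the 12. The absence of a match says only that these letters are not in this stretch. Whether a match bears on the size of a change was not tested.

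Among the Sprouty genes, SPRY4 had the largest change of the 10 at 72 h. Its signals were -0.84, -0.99, -0.76 and -0.85 in DMSO 72 h and 1.08, 1.49, 1.72 and 1.29 in G-1 1 µM 72 h. The groups were far apart, and the fold change was 4.76 (log2 2.25, interval 1.83 to 2.68, adjusted p = 9.48e-09), with an interval that overlapped those of DUSP4, DUSP5 and DUSP6. Of the noncoding RNAs on the array that are named for the SPRY4 locus, SPRY4-IT1 rose by a log2 fold change of 1.82 (adjusted p = 4.25e-05). The probe of SPRY4-AS1 was well above background on 4 of 4 treated arrays but on 1 of 4 DMSO 72 h arrays (adjusted p = 5.44e-05), and no fold is given for it.

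SPRY2 had signals of 2.74, 2.76, 2.68 and 2.91 in DMSO 72 h and 4.06, 3.86, 4.07 and 4.06 in G-1 1 µM 72 h. The groups did not overlap, and the fold change was 2.36 (log2 1.24, interval 1.04 to 1.43, adjusted p = 7.39e-10). SPRY1 had 0.97, 0.77, 0.67 and 0.46 in DMSO 72 h and 2.26, 2.41, 1.77 and 1.96 in G-1 1 µM 72 h. It was also clear of its controls, with a fold change of 2.61 (log2 1.38, interval 1.05 to 1.72, adjusted p = 3.17e-07). Its other, dimmer probe had a log2 fold change of 1.12 (adjusted p = 2.79e-06) and was called too.

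The SPRED genes, whose products block the activation of RAF by RAS, moved less. SPRED2 had 0.07, 0.28, -0.01 and 0.15 in DMSO 72 h and 1.30, 0.98, 1.35 and 1.20 in G-1 1 µM 72 h. The groups did not overlap, and the fold change of 2.12 (log2 1.09, interval 0.82 to 1.36, adjusted p = 3.83e-07) lay just above the threshold. With normexp background correction, which here included an offset of 50 and quantile normalization, it was no longer called (log2 0.76). SPRED1 had 1.04, 1.06, 0.98 and 1.02 in DMSO 72 h and 1.79, 1.22, 1.61 and 1.59 in G-1 1 µM 72 h, and was not called, at a fold change of 1.44 (log2 0.53, interval 0.30 to 0.76, adjusted p = 0.000351). The interval of SPRED1 did not overlap that of SPRED2.

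PHLDA1 had the smallest change of the 10. Its signals were 2.72, 2.91, 2.75 and 2.66 in DMSO 72 h and 3.09, 3.06, 3.34 and 2.97 in G-1 1 µM 72 h. The lowest treated array lay barely above the highest control array, and the fold change was 1.28 (log2 0.36, interval 0.15 to 0.56, adjusted p = 0.00412). With the 50th percentile of each array in place of the 75th, its adjusted p was 0.115, which left 9 genes that passed.

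After 24 h at G-1 1 µM, SPRY1 and SPRY4 were the 2 of 10 genes called, both higher, beside 0.513% of all genes called higher and 1.69% in either direction. DUSP1, DUSP4, DUSP5, DUSP6, SPRY2 and SPRED2 also rose, at fold changes between 1.32 and 1.89, so that 8 genes passed the adjusted p, beside 20% of all genes that rose. For the same 8 genes the treated arrays lay above all DMSO arrays, as for 19.5% of all genes. The median log2 fold change of the 10 was 0.72, against 0.04 for all genes.

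SPRY1 had -0.54, -0.37, -0.62 and -0.72 in DMSO 24 h and 1.16, 1.05, 0.88 and 0.68 in G-1 1 µM 24 h. The groups were far apart, with a log2 fold change of 1.50 (interval 1.17 to 1.84, adjusted p = 5.56e-06). The dimmer SPRY1 probe gave 0.67 (adjusted p = 0.0031) and was not called, so the 2 probes differed in the call. SPRY4 had -0.87, -0.89, -1.30 and -1.50 in DMSO 24 h and 0.47, 0.71, 0.26 and -0.18 in G-1 1 µM 24 h. Its log2 fold change was 1.45 (interval 1.03 to 1.88, adjusted p = 6.43e-05), but 0.79, and no call, with normexp background correction.

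Of the phosphatases at 24 h, DUSP6 had 1.15, 1.51, 0.60 and 0.84 in DMSO and 1.94, 2.30, 1.94 and 1.59 in G-1 1 µM. The groups did not overlap, although the DMSO arrays were spread. Its log2 fold change was 0.92 (interval 0.55 to 1.28, adjusted p = 0.000888), and without replicate 2 of DMSO or replicate 4 of G-1 1 µM it was above 1 and called (1.08 and 1.03). In other settings DUSP6 fell as low as 0.67 and did not pass the adjusted p in every one (at most 0.0508). DUSP4 had -0.06, 0.01, 0.32 and 0.09 in DMSO and 1.08, 0.95, 1.06 and 0.70 in G-1 1 µM, a log2 fold change of 0.86 (interval 0.54 to 1.17, adjusted p = 0.000449). DUSP5 had -0.48, -0.31, -0.31 and -0.26 in DMSO and 0.26, 0.48, 0.72 and 0.24 in G-1 1 µM, a log2 fold change of 0.76 (interval 0.47 to 1.06, adjusted p = 0.000674). All 3 genes were clear of their controls and under a fold change of 2.

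PHLDA1 and SPRED1 did not follow the others at 24 h. PHLDA1 had 2.60, 2.88, 3.04 and 3.03 in DMSO and 2.49, 2.56, 2.81 and 2.74 in G-1 1 µM, and the groups overlapped. Its log2 fold change was -0.23 (interval -0.44 to -0.03, adjusted p = 0.0834). With the replicate number as a block, which was taken to pair the arrays of this comparison, the adjusted p was 0.0407. It was 0.0274 with quantile normalization. For DUSP1, the adjusted p of 0.00393 at 24 h (log2 0.40) became 0.122 with the 50th percentile in place of the 75th. SPRED1 had a log2 fold change of 0.13 (interval -0.10 to 0.37, adjusted p = 0.385).

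The comparison, chosen after the values were seen, of the longer with the shorter exposure within G-1 1 µM, on slide 3 alone, gave 5 of 10 genes called higher at 72 h: DUSP4 (log2 1.50), DUSP6 (1.34), SPRY1 (1.16), SPRY4 (1.08) and DUSP5 (1.08). Of all genes, 1.69% were called higher and 5.09% in either direction. With no fold threshold, 10 of 10 were higher at 72 h, beside 18.9% of all genes. SPRY2 passed the adjusted p at a log2 value of 0.95 (adjusted p = 1.03e-07).

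Between 24 h and 72 h in DMSO alone, 1 of the 10 genes was called. SPRY1 was called higher in DMSO 72 h than in DMSO 24 h, with a log2 fold change of 1.28 (interval 0.94 to 1.62, adjusted p = 0.000168), beside 0.169% of all genes called in either direction. The arrays of the 2 durations did not overlap, and the dimmer probe gave 0.93 (adjusted p = 0.00241), which passed the test but not the fold. With normexp background correction SPRY1 had 0.96 and was not called. In DMSO, the DUSP1 arrays of 72 h and 24 h did not overlap either, at -0.20 (adjusted p = 0.266), and non-overlap in either direction was found for 2 of 10 genes and 12.9% of all genes. The remaining genes had log2 fold changes in DMSO from -0.38 for DUSP5 to 0.51 for DUSP6, with adjusted p from 0.126 to 0.7. At G-1 IC50, SPRY1 was called higher at 72 h than at 24 h (1.13, adjusted p = 0.000309), as 1 of 10 genes beside 0.33% of all genes.

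Whether the effect of G-1 1 µM differed between durations was tested as its log2 fold change at 72 h minus that at 24 h, in which a constant offset between sessions cancels. DUSP5 (1.45, interval 1.04 to 1.87, adjusted p = 1.96e-05) and DUSP4 (1.07, interval 0.62 to 1.51, adjusted p = 0.000843) had differences above a fold of 2, which is 2 of 10 genes, beside 2.42% of all genes in that direction and 6.3% in either. The call of DUSP4 was lost, leaving 1, without replicate 3 of DMSO 24 h, replicate 2 of DMSO 72 h or replicate 4 of G-1 1 µM 24 h, where its difference was at the lowest 0.96. With no fold threshold, 7 genes had a larger effect at 72 h, beside 16.5% of all genes: these 2, DUSP1, DUSP6, SPRY2, SPRY4 and PHLDA1. Of these 7, 4 did not pass under every setting. With the 50th percentile, the adjusted p was 0.0799 for DUSP1, 0.053 for SPRY4 and 0.0519 for PHLDA1, and with no filter on dim probes it was 0.125 for SPRY4 and 0.0519 for DUSP6. SPRY4 also did not pass without replicate 1 or 2 of DMSO 24 h, replicate 1, 2 or 4 of DMSO 72 h, replicate 3 or 4 of G-1 1 µM 24 h, or replicate 2 or 3 of G-1 1 µM 72 h, with an adjusted p of at most 0.101. SPRY1 was the only one of the 10 with a difference below 0, at -0.12 (interval -0.60 to 0.36, adjusted p = 0.732), while its dimmer probe gave 0.44 (adjusted p = 0.132).

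**Figure D2:**
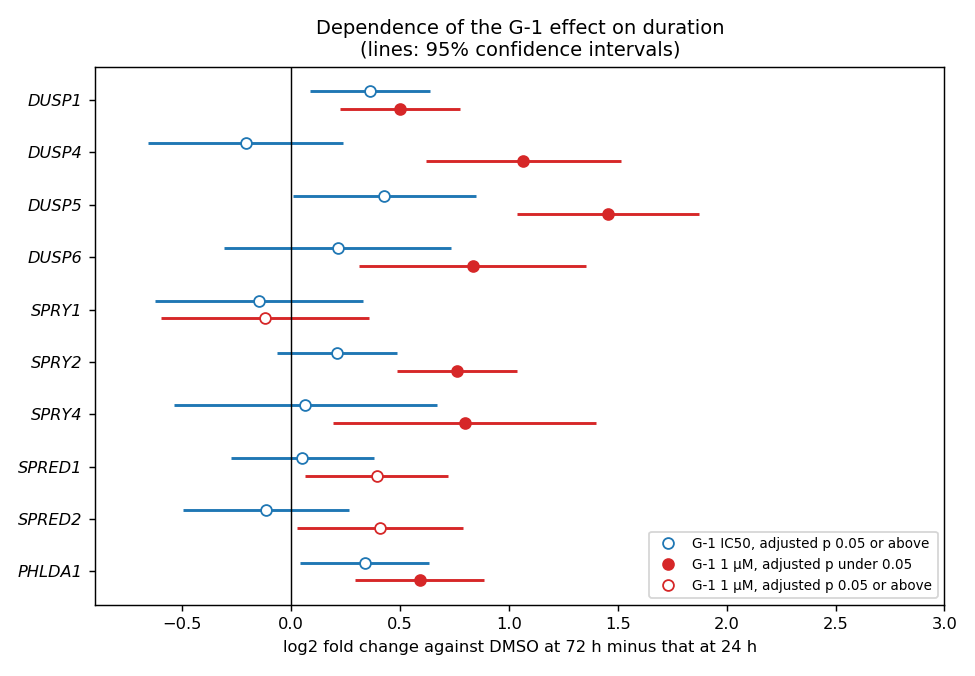
Log2 fold change against DMSO at 72 h minus that at 24 h for each gene (horizontal axis), for G-1 IC50 (blue) and G-1 1 µM (red), with 95% confidence intervals as lines and filled points where the limma adjusted p was under 0.05. For G-1 1 µM, 7 points are filled, and DUSP5 is furthest to the right at 1.45, while SPRY1 lies at -0.12.

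At G-1 IC50, none of the 10 genes was called at either duration in limma, and none passed the adjusted p. At 24 h, 0 of the 10 genes had an unadjusted p under 0.05, beside 664 of 14236 genes, the log2 fold changes ran from -0.09 to 0.26, and 0.0632% of all genes were called. The intervals reached at most 0.60, for SPRY1. At 72 h, 4 of the 10 genes had an unadjusted p under 0.05, beside 1366 of 14236 genes, and 0.112% of all genes were called. The methods' t-test after Benjamini-Hochberg adjustment called 0 of the 10 genes at either duration. That count was fixed in advance, since the test uses the same fold changes and none of them was above 2.

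The 4 genes at 72 h were DUSP6 (log2 0.44, interval 0.07 to 0.81, adjusted p = 0.439), DUSP5 (0.43, interval 0.13 to 0.72, adjusted p = 0.268), DUSP1 (0.37, interval 0.17 to 0.57, adjusted p = 0.0814) and PHLDA1 (0.31, interval 0.10 to 0.52, adjusted p = 0.234). DUSP6 had 1.64, 1.99, 2.15 and 2.12 in G-1 IC50 72 h and PHLDA1 had 3.02, 3.02, 3.07 and 3.17, in both cases above all 4 DMSO 72 h arrays. Such a separation upwards was found for 2 of 10 genes and 2.68% of all genes, and its exact two-sided permutation p was 0.0286, the smallest that 4 against 4 arrays can give. DUSP1 had 0.37 within the first slide and 0.34 within the second, and DUSP6 had 0.46 and 0.42. PHLDA1 had 0.23 and 0.35, and DUSP5 had 0.15 and 0.51, with 1 treated and 2 DMSO arrays on the first slide and 3 and 2 on the second. With the replicate number and duration together as a block, the adjusted p was 0.036 for DUSP1, 0.0498 for DUSP5, 0.0468 for DUSP6 and 0.0494 for PHLDA1, all at a fold change under 2. For DUSP1 it was also 0.0475 with the replicate number alone as a block and 0.0414 with quantile normalization. By the rule given under processing, replicate numbers were not taken to pair DMSO 72 h with G-1 IC50 72 h, as replicate 4 correlated at 0.05. For replicate 4, an array of another number correlated more highly (0.24). Replicates 1, 2 and 3 correlated at 0.31, 0.485 and 0.37, each more highly than with any other number. The share of all genes that passed with a block was not counted.

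**Figure D3:**
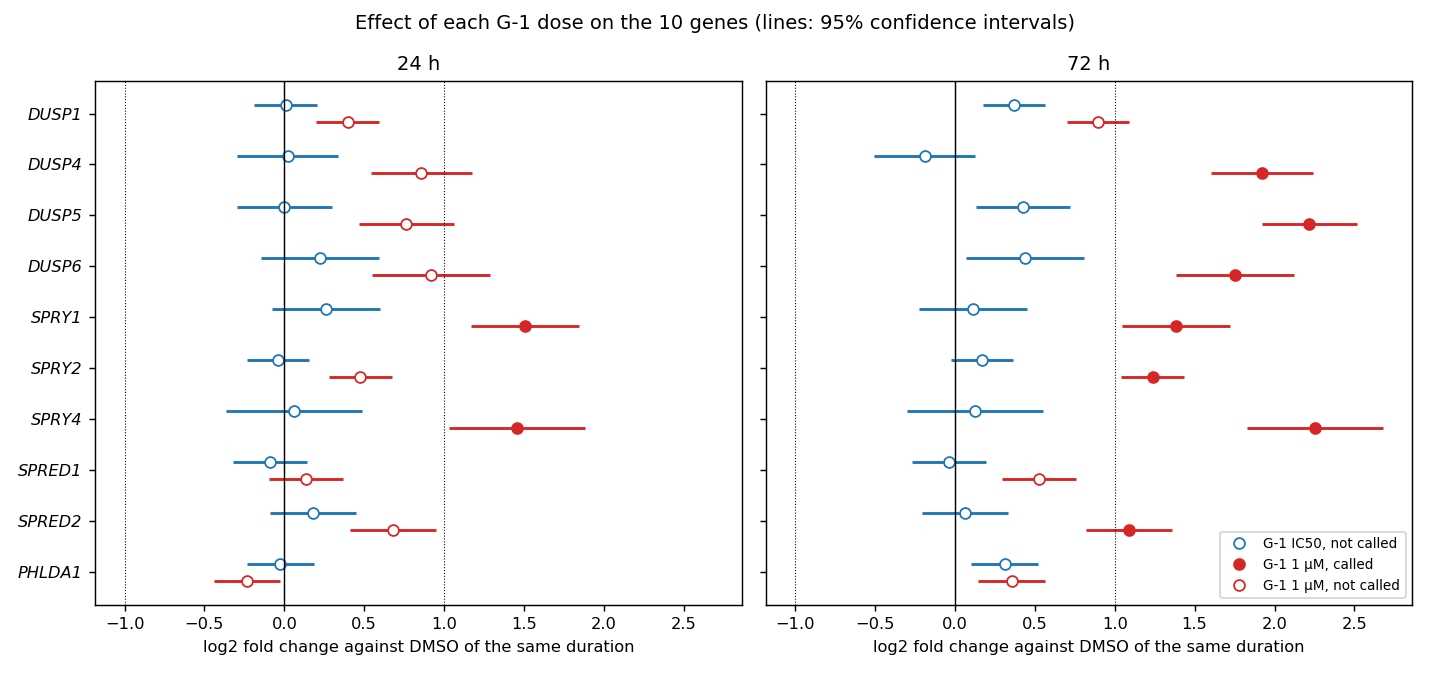
Log2 fold change of each gene against DMSO of the same duration (horizontal axis), at 24 h (left) and 72 h (right), for G-1 IC50 (blue) and G-1 1 µM (red), with 95% confidence intervals as lines, filled points for genes called and dotted lines at a fold change of 2. The blue intervals stay between -0.51 and 0.81, and at 72 h 7 red points are filled.

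The 2 doses were also compared directly, with the same limits of slide and session. After 24 h, SPRY1 (log2 1.24, adjusted p = 6.01e-05) and SPRY4 (1.39, adjusted p = 0.000133) were called higher at G-1 1 µM than at G-1 IC50, which is 2 of 10, beside 0.316% of all genes. Both calls were lost with normexp background correction, and over the other settings the lowest values were 0.84 for SPRY1 and 0.75 for SPRY4. The dimmer SPRY1 probe gave 0.82 at 24 h (adjusted p = 0.000803) and was not called. After 72 h, the same 7 genes that were called against DMSO were called against G-1 IC50, beside 4.53% of all genes. They ran from 1.02 for SPRED2 (adjusted p = 9.73e-07) and 1.07 for SPRY2 (adjusted p = 6.85e-09) to 2.11 for DUSP4 (adjusted p = 4.68e-10) and 2.13 for SPRY4 (adjusted p = 2.41e-08). Of these 7 calls at 72 h, SPRY2 and SPRED2 were those that other settings ended. Both fell under a fold of 2 without replicate 1 of G-1 IC50 72 h (0.95 and 0.93), which left 5 calls. They also did so with the 50th percentile in place of the 75th (0.90 and 0.86). The dimmer SPRY1 probe was at 0.96 at 72 h (adjusted p = 1.96e-05) and was not called. For PHLDA1 no difference between the doses was detectable (0.04, interval -0.16 to 0.25, adjusted p = 0.71), and its sign turned with quantile normalization (-0.02) and the 50th percentile (-0.12).

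The other genes of the pathway were counted in lists chosen with earlier results of these data known. Of 17 other genes induced through ERK, 11 were called higher and 1 lower after 72 h at G-1 1 µM, with a median log2 fold change of 1.72, while 4.93% of all genes were called higher and 12.3% in either direction. The largest were IER3, an early response gene (3.46, adjusted p = 1.14e-10), LIF, a cytokine (2.40, adjusted p = 1.66e-06), PLAUR, the urokinase receptor (2.32, adjusted p = 2.29e-11), and HBEGF, a ligand of the EGF receptor (2.12, adjusted p = 2.07e-09). The 1 called lower was the ephrin receptor gene EPHA4 (-1.71, adjusted p = 4.65e-09). At 24 h 8 of the 17 were called, all higher, with a median of 0.99, beside 0.513% of all genes called higher. EGR1 and FOS, transcription factors of the immediate early response that were picked out after their values were seen, were among these 8, at 1.37 (adjusted p = 0.000542) and 1.11 (adjusted p = 0.000782). At 72 h they had 0.81 (adjusted p = 0.0076) and 0.35 (adjusted p = 0.155), and neither difference between durations passed the adjusted p (0.241 and 0.058). The control of FOS itself moved. FOS was the 1 gene of the 17 called higher in DMSO at 72 h than in DMSO at 24 h, beside 0.0702% of all genes called higher.

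The cascade itself, from SHC1 and GRB2 through RAS, RAF and MEK to ERK, had 0 of 16 tested genes called after 72 h at G-1 1 µM, with a median of 0.13, beside the same 12.3% of all genes called in either direction. Of these 16, 8 passed the adjusted p upwards at a fold change under 2 and 3 downwards. HRAS (0.96, adjusted p = 4.33e-09) and NRAS (0.92, adjusted p = 2.1e-10), also picked out after their values were seen, were among the 8. Of 12 kinases and transcription factors acted on by ERK, 2 were called higher, ETS2 (1.66, adjusted p = 5.92e-09) and ELK3 (1.37, adjusted p = 5.95e-10), and 0 lower. Of 9 genes of the JNK, p38 and ERK5 pathways, 0 were called, with a median of 0.22.

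Other negative regulators are read against the same shares of all genes at 72 h, 4.93% called higher and 12.3% in either direction. Of 4 other MAP kinase phosphatases tested, 1 was called, DUSP10, which acts on p38 and JNK (1.57, adjusted p = 1.16e-10), while DUSP7, DUSP8 and DUSP16 were not, and the list had a median of 0.09. Of 4 other Sprouty, SPRED and PHLDA genes, PHLDA2 was called higher (1.98, adjusted p = 1.52e-11) and SPRY3 lower. SPRY3 was not well above background on any of the 4 treated arrays, and was at least 1.86-fold lower there than in DMSO 72 h (adjusted p = 2.15e-06). Of 9 other inhibitors of receptor tyrosine kinase signalling, 1 was called higher, RASA1, a GTPase-activating protein for RAS (1.30, adjusted p = 4.71e-09), and 0 lower, with a median of -0.18. After 24 h at G-1 1 µM, 0 genes of these lists, of the cascade, of the factors acted on by ERK and of the other MAP kinase pathways were called, beside 1.69% of all genes. SPRY4-IT1 was called at 24 h (1.43, adjusted p = 0.00237), and SPRY4-AS1 passed the test as well (adjusted p = 0.0121), though its probe was not well above background on any of the 8 arrays. At G-1 IC50, 0 genes of any list were called at either duration in limma, and 1, SOCS2 among the receptor inhibitors, passed the adjusted p at 72 h (0.50, adjusted p = 0.0128).

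**Figure D4:**
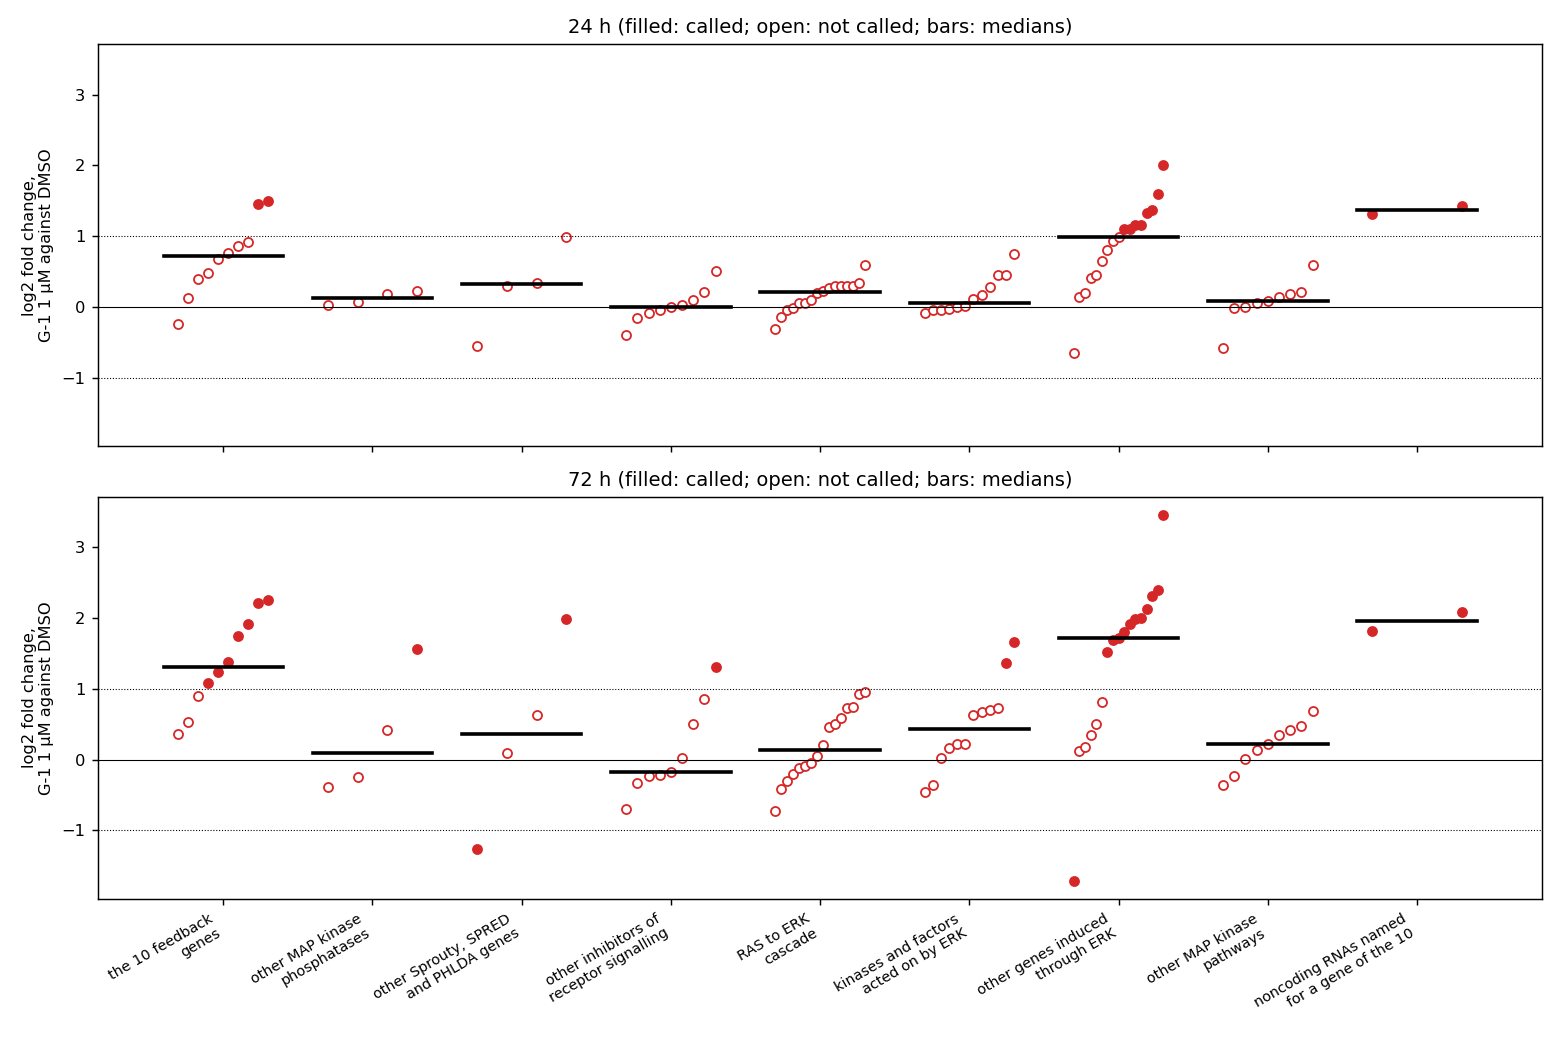
Log2 fold change of G-1 1 µM against DMSO (vertical axis) at 24 h (top) and 72 h (bottom) for the 10 feedback genes and for each tested gene of 8 pathway lists (points, in order of value; filled where called; bars, medians; dotted lines, a fold change of 2). The feedback genes and the other genes induced through ERK have medians of 1.31 and 1.72 at 72 h, and the other 6 lists of protein-coding genes have medians between -0.18 and 0.43; the SPRY3 point at 72 h and the SPRY4-AS1 points, among others, rest on groups with arrays not well above background.

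Other RNAs moved with the feedback genes after 72 h at G-1 1 µM. Of the 7 tested markers of the line, GFAP (-2.71, adjusted p = 2.55e-07) and S100B (-1.96, adjusted p = 5.39e-08) were called lower and TNC higher (1.42, adjusted p = 6.23e-07). After 24 h 0 of the 7 were called in limma, and 0 passed the adjusted p. CDH5 was well above background on 4 of 4 DMSO 72 h arrays and 0 of 4 G-1 1 µM 72 h arrays (adjusted p = 0.0599). Group means of GFAP ran from 4.02 in G-1 1 µM 72 h to 7.34 in G-1 1 µM 24 h. Spots that passed the background test made up 41.1% to 44.5% of those of an array in session 1 and 38.0% to 40.7% in session 2. The part of these shifts in the values of the feedback genes was not tested.

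The pattern most like that of the feedback genes was sought among 12693 other genes whose probe passed the background test on each of the 24 arrays. The median of the 10 genes, relative to the DMSO 24 h mean, was 0.24 in DMSO 72 h, 0.01 in G-1 IC50 24 h, 0.30 in G-1 IC50 72 h, 0.72 in G-1 1 µM 24 h and 1.63 in G-1 1 µM 72 h. By the root mean square difference over these 5 group means, the nearest genes were LOC107987071 (0.10), JMJD6 (0.10), EMC3-AS1 (0.12), KDR (0.14) and SAPCD2 (0.14). Of the 10 genes themselves, SPRED2 (0.14) and SPRY2 (0.15) lay closest to their median, and SPRY1 (0.90) and PHLDA1 (0.78) lay furthest from it. SPRY1 stood at 1.28 in DMSO 72 h, and PHLDA1 at -0.23 in G-1 1 µM 24 h. These distances describe 5 group means that share 1 reference group and carry no test.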

How the data were processed

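RNA of 24 cultures of U251 cells was hybridised to 1-colour human 8x60K arrays. The authors deposited, for each array, Agilent Feature Extraction spot intensities, already background-subtracted by that software, with flags for spots well above background, and a table of log2 values on the 75th percentile scale. The software version is 10.7.3.1 in the labels and 12.1.1.1 in the file headers. The deposited log2 table was compared with the scanner intensities processed as below, after the median of each probe over the 24 arrays was also subtracted from them. The median absolute difference was 0.00142. Columns of 0 or 1 flags served as the filter.

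Log2 intensities had the 75th percentile of each array subtracted, and spots of a probe were averaged. Of 58118 probes kept, 22973 entered the tests, those that passed the background flag in each of the 4 replicates of some group. RefSeq accessions were named through the RefSeq table, in which 35028 of 58201 probes matched 1 symbol. Limma 3.58.1 in R 4.3.3 was fitted to the 6 group means (18 residual degrees of freedom), with Benjamini-Hochberg adjustment over all tested probes. A gene stands by its brightest tested probe. Python 3.11.15, SciPy 1.17.1, pandas 2.3.3 and matplotlib 3.10.9 served for exact permutation tests and plots. The fit was tested on simulated data. The 10 genes and all lists were chosen with earlier results of these data known. From each list, at most 4 genes called at G-1 1 µM 72 h were named, those with the largest change, and genes named beyond this rule are marked in the text or are the sole member of a count.

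Replicate numbers were taken to pair the arrays where every same-numbered pair of deviations correlated above 0.1. Among the 24 h groups, that held for G-1 1 µM with DMSO (0.17 to 0.28) and with G-1 IC50 (0.20 to 0.31). An array of another number correlated more highly for replicate 1 with DMSO (0.23) and for replicates 1 and 2 with G-1 IC50 (0.22 and 0.26). For the other replicates the same number was highest. Alternatives were other scalings, normexp background correction, other filters, the deposited table, blocks by replicate and slide, a t-test, other probe rules and leaving out each array. Normexp always stands for correction of the median spot signals by their median background with an offset of 50, followed by quantile normalization. The slide block for comparisons with G-1 1 µM was chosen after seeing the data.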

Additional observations from a re-analysis of the deposited data

Results flagged for a closer look

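In 3 of 60 groups of 4 arrays, 1 array stood apart from the other 3, where chance gives about 1 in 20 groups. DUSP5 had 1.87 in replicate 3 of G-1 1 µM 72 h, above the other arrays at 1.36 to 1.40. SPRY2 had 2.42 in replicate 1 of G-1 IC50 24 h, below 2.58 to 2.60, and 3.86 in replicate 2 of G-1 1 µM 72 h, below 4.06 to 4.07.

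The effect of G-1 1 µM differed between 72 h and 24 h for 7 of the 10 genes in limma, as the log2 difference of the effects: DUSP5 had 1.45, DUSP4 1.07, DUSP6 0.83, SPRY4 0.80, SPRY2 0.76, PHLDA1 0.59 and DUSP1 0.50. All 7 were above 0.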

How the results depend on the processing

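No member's log2 fold change that was called reversed under any alternative. Over all alternatives, 2060 values kept their side of the threshold, 18 fell below it and 2 rose above it. Most of the 2060 were called neither in the main fit nor in the alternative, so that number says little about how firmly the calls held. For values called in neither setting the sign was not compared, and some turned, as for PHLDA1 between the doses at 72 h. With normexp background correction and quantile normalization, 1 gene was called at 24 h for G-1 1 µM against DMSO and 0 against G-1 IC50. The count was 0 for DMSO at 72 h against 24 h and 1 for the difference of the G-1 1 µM effects. Over all genes, the share called at G-1 1 µM against DMSO fell from 12.3% to 5.23% at 72 h. At 24 h it fell from 1.69% to 0.19%. This setting added 50 to each intensity before the log, which by construction makes fold changes smaller. How far that accounts for the falls was not tested. With no fold threshold, 8, 8 and 7 genes passed at 24 h for G-1 1 µM against DMSO and against G-1 IC50, and for the difference of effects, by construction. Leaving out 1 array gave 2 to 3 calls at 24 h and 7 to 7 at 72 h for G-1 1 µM against DMSO, 2 to 2 and 5 to 7 against G-1 IC50 at 24 h and 72 h, 1 to 1 for DMSO over time, 1 to 2 for the difference of effects and 0 to 0 at G-1 IC50. With the replicate block, the counts were again 2, 7, 2, 7, 1 and 2, and 0 at G-1 IC50. The slide block, which set slide 2 apart from the other slides, changed none of the counts it was used for. It cannot remove an offset of slide 3 from the comparisons of G-1 1 µM with DMSO, so the unchanged counts there do not bear on such an offset. With the 50th percentile, the median of all genes moved from 0.05 to -0.12 and from 0.05 to -0.11 for G-1 1 µM against G-1 IC50 at 24 h and 72 h, and the share of calls that were higher from 22.1% to 8.3% and from 39.7% to 24.5%. That share moved from 43.8% to 62.5% for G-1 IC50 against DMSO at 72 h and from 41.7% to 30.8% for DMSO over time with the 50th percentile, and with normexp to 33.3% and 75%, and from 30.3% to 48.1% at 24 h for G-1 1 µM against DMSO. For G-1 IC50 at 72 h and DMSO over time these shares rest on few genes. The main fit called 16 and 24 genes, and normexp called 0.0211% and 0.0281% of all genes. The 11 tested probes of the 10 genes were well above background on all arrays, while the second SPRY4 probe and several list genes, SPRY3, SPRY4-AS1, DUSP7, SPRED3, GAB1 and ETV1 among them, were not.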
